A study of Homo sapiens with 10 samples.

Results

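The genes described here carry the symbols given to proteins of the mitochondrial ribosome, and whether each protein is part of the particle was not checked. They were chosen by symbol alone, as the protein-coding genes named MRPL or MRPS followed by a number and, in a few cases, a letter A to C. The rule found 78 genes among 59204 human genes in the tables, of which 19443 were annotated as protein-coding. By symbol, 49 belonged to the large subunit (MRPL) and 29 to the small subunit (MRPS). They lay on 21 chromosomes, with 8 on chromosome 17. A further 5 mitoribosomal proteins, DAP3, PTCD3, AURKAIP1, CHCHD1 and GADD45GIP1, do not carry such a symbol and are given beside the 78 as a list of their own.

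The mitochondrial ribosome is assembled inside the organelle from ribosomal RNA made from mitochondrial DNA and from proteins that are all encoded in the nucleus, made in the cytosol and imported. It translates the few messages of the mitochondrial genome, which encode core subunits of the respiratory chain. Many of its proteins descend from those of bacterial ribosomes, while others are found only in mitochondria. Symbols do not always match position: MRPS18A and MRPS30 carry small-subunit names but sit in the large subunit of the mammalian particle.

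The libraries came from K562, an established human chronic myeloid leukaemia cell line, and were made by SLAM-seq, in which newly made RNA takes up 4-thiouridine and its reads then carry T-to-C conversions. All cells, controls included, received 100 µM 4-thiouridine in the last 1 h of a 2 h treatment. The groups, with 2 libraries each, were actinomycin D at 1 µg/mL, which blocks transcription by intercalating into DNA; AZ-5576 at 1 µM, an inhibitor of CDK9, the kinase that releases paused RNA polymerase II; JQ1 at 1 µM, an inhibitor of BET bromodomain proteins; A-485 at 1 µM, an inhibitor of the acetyltransferases CBP and p300; and the solvent DMSO. Libraries read the 3′ ends of polyadenylated RNA, so a count is not divided by gene length, and levels are not compared between genes.

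Total human counts were 14916671 to 17918971 per library, and Drosophila spike-in counts were 10.0 to 11.7% of all counts. Human counts with conversions (labelled counts) were 1410 to 1614 per library with actinomycin D and 322771 to 448401 with JQ1, A-485 or DMSO. All 10 K562 marker genes were detected. Markers of other blood, epithelial and stromal cells, a list of 11 genes, summed to 117 to 135 CPM (counts scaled to the library total) in a library, against 6060 to 6989 CPM for the K562 markers. Of the 11, 8 reached 10 counts in a library, led by EPCAM with 929 to 1116 total counts and CD3D with 412 to 656, and MS4A1 was at 0 in every library. Because Drosophila RNA was mixed in after purification, fewer cells and less RNA per cell cannot be told apart. Nothing in the labels says that the 2 libraries of a group came from separate cultures, so p-values measure the spread between these libraries, which may be technical. Intervals cover counting error only.

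Promoter sequences are shown first, because members that changed to different extents with JQ1 can be compared by the letters before their starts. RefSeq promoters (GRCh38.p14, 250 bases before to 50 after a gene's start) were found for 69 of the 78 members. A set of 4 short motifs was searched on both strands: the ETS core CCGGAAGT, the NRF1 core GCATGCGC, the E-box CACGTG and the YY1 core AAGATGGC. NRF1, the ETS factor GABP and YY1 are known regulators of nuclear genes for mitochondrial proteins. The 6 sequences below are 120 bases each, 5′ to 3′ on the gene's strand, and end before the outermost annotated start, with any of the 4 motifs in capitals. MRPL3, MRPL27, MRPS15 and MRPL50 are shown because their labelled RNA fell furthest with JQ1 among members with enough counts to be named, and MRPL18 and MRPL46 because theirs was closest to DMSO.
MRPL3 (chr3:131502984-131503103, minus strand): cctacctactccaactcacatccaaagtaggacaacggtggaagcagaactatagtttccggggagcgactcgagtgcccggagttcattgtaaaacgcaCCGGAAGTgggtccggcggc
MRPL27 (chr17:50373215-50373334, minus strand): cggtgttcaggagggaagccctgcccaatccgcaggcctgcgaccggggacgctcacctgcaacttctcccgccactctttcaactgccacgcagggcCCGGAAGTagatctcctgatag
MRPS15 (chr1:36464438-36464557, minus strand): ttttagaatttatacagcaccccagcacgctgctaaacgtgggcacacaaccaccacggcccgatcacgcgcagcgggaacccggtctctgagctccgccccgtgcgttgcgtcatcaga
MRPL50 (chr9:101398619-101398738, minus strand): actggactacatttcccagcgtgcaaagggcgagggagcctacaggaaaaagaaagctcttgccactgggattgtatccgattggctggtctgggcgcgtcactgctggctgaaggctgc
MRPL18 (chr6:159789692-159789811, plus strand): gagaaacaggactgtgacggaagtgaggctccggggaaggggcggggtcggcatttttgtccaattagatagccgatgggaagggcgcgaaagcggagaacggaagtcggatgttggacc
MRPL46 (chr15:88467420-88467539, minus strand): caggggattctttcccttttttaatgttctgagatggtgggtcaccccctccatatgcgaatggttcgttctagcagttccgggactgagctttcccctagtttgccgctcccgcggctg

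The ETS core stood in the windows of MRPL3 and MRPL27, while those of MRPS15 and MRPL50, which also fell, and of MRPL18 and MRPL46 held none of the 4 motifs. Only exact matches to all letters were counted, so near matches, such as those to the ETS core in the MRPL18 window, are not marked. Over all promoters, it was found in 11 of 69 members (15.9%) and in 943 of 14714 protein-coding genes (6.41%). The YY1 core was found in 20 of 69 members (29%) and in 592 of the 14714 genes (4.02%). The NRF1 core was found in 6 members (8.70%, against 4.34% of the 14714) and the E-box in 6 (8.70%, against 8.94%). These shares are descriptions of the letters in these windows, with no test.

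In 15 of the 20 members with the YY1 core, a match began 6 to 35 bases after the RefSeq start, and in 12 of these 15 the ATG inside it was a start codon of the GENCODE 29 annotation. The letters of the motif therefore overlapped the first codon there, and a match to them does not show binding of the factor. The windows of 30 bases below, with the motif in capitals, show 6 of the 15 starts, chosen after their values were seen.
MRPL50 (chr9:101398577-101398606, minus strand): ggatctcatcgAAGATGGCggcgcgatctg
MRPS18A (chr6:43687764-43687793, minus strand): gtaggtttttgAAGATGGCggccctcaagg
MRPS24 (chr7:43869480-43869509, minus strand): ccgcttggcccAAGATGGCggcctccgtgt
MRPS7 (chr17:75261887-75261916, plus strand): cgtggccagccAAGATGGCtgcccccgcag
MRPS30 (chr5:44808949-44808978, plus strand): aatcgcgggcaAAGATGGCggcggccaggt
MRPL46 (chr15:88467362-88467391, minus strand): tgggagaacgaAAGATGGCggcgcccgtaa
They are ordered by the log2 fold change of labelled RNA with JQ1, which was −2.89 for MRPL50 and −0.16 for MRPL46. All of those shown except MRPL46 fell with JQ1 in the test given below, against 9 of the full 15, so the display overstates how often such members fell.

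New RNA of the mitochondrial ribosomal protein genes was close to 0 after actinomycin D or AZ-5576, was well below the DMSO level after JQ1, and lay beside it after A-485. Labelled counts summed over the 78 genes were 2 and 2 in the actinomycin D libraries and 56 and 64 in those of AZ-5576. JQ1 libraries held 1739 and 1539, A-485 libraries 3475 and 3773, and DMSO libraries 3621 and 3155. Per 1000 spike-in counts, the sum averaged 0.0309 ± 0.00031 in AZ-5576 libraries, 0.757 ± 0.0407 in JQ1 libraries, 1.83 ± 0.0973 in A-485 libraries and 1.82 ± 0.123 in DMSO libraries (SD, n = 2 each). The libraries of the first 3 drugs did not overlap those of DMSO, and the A-485 libraries overlapped them. As a percentage of DMSO, these sums were 0.0524% after actinomycin D, 1.69% after AZ-5576, 41.5% ± 3.59 after JQ1 and 101% ± 8.65 after A-485. A permutation of 2 libraries against 2 cannot give a p below 0.33, so no test was made on the sums.

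Scaled to total human labelled counts instead of the spike-in, the sums were 17.3%, 13.5%, 64.2% and 110% of DMSO in the same order of drugs, below DMSO in the first 3. With JQ1 the sum was at 43.0% ± 4.78 of DMSO for the large subunit and 39.4% ± 3.54 for the small subunit. With AZ-5576 it was at 0.942% ± 0.0673 for the large subunit and 2.75% ± 0.266 for the small subunit, on 39 and 81 labelled counts. The subunits were not tested against each other.

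**Figure D1:**
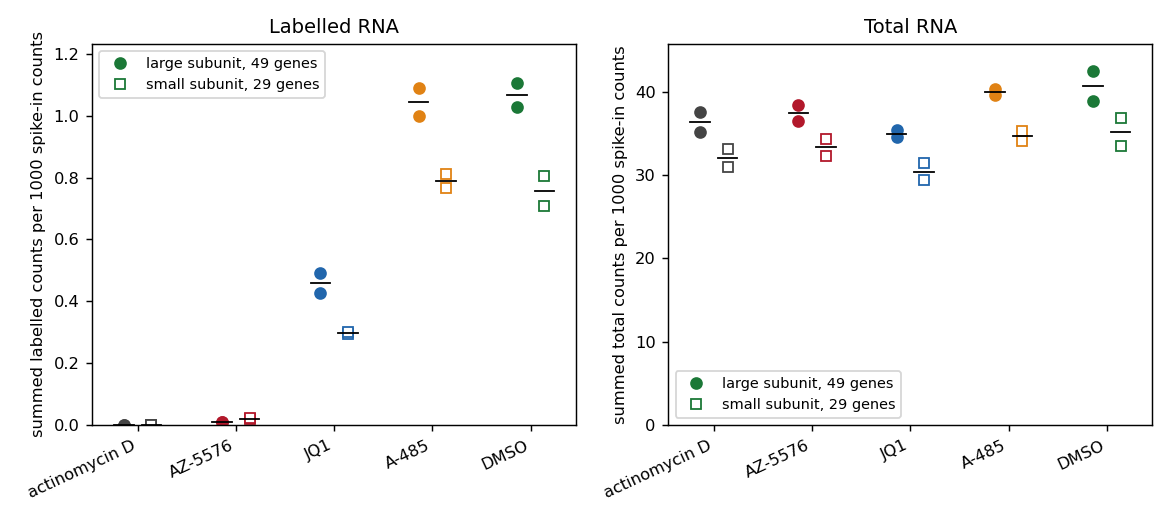
Summed labelled (left) and total (right) counts of the large-subunit (filled circles) and small-subunit (open squares) genes per 1000 spike-in counts, 1 point per library, with the mean of 2 libraries as a bar. Labelled RNA of both subunits lies near 0 for actinomycin D and AZ-5576, between 0 and DMSO for JQ1, and beside DMSO for A-485, while total RNA stays between 86.2% and 98.4% of DMSO over both subunits together.

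Other gene lists serve as a scale for these sums. With JQ1, summed labelled RNA was 56.6% ± 2.34 of DMSO for the nuclear-encoded respiratory chain, 61.7% ± 1.53 for cytosolic ribosomal proteins and 82.3% ± 8.16 for genes encoded by mitochondrial DNA, which are transcribed by a separate polymerase. With AZ-5576 the same lists were at 4.30% ± 0.947, 8.30% ± 0.314 and 77.5% ± 2.67, and with A-485 at 104% ± 5.21, 118% ± 5.07 and 88.6% ± 9.60. Scaled to total human labelled counts, the 3 lists were at 87.5%, 95.3% and 127% with JQ1 and at 34.2%, 66.2% and 618% with AZ-5576, so genes of mitochondrial DNA lay above DMSO on that scale.

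Actinomycin D, the block of all transcription, left 4 labelled counts over the 78 genes in both libraries together, 0.0523% of DMSO with an exact Poisson 95% interval of 0.0143 to 0.134%. These counts came from MRPL13 (2 and 0), MRPL10 (0 and 1) and MRPL11 (0 and 1), and the other 75 members were at 0. MRPL34, which is conserved from bacteria and had the most labelled counts of all members in DMSO, had 0 and 0 with actinomycin D, against 243 and 165 with DMSO. MRPL14 and MRPS10 were also at 0 in both libraries, against 48 and 34 and against 47 and 40 with DMSO. Taking 3 counts over the group as the limit of a count of 0, labelled RNA of MRPL34 was at least 154-fold lower. The same bound was at least 96.3-fold for MRPS21, 85.0-fold for MRPL36 and 74.5-fold for MRPS16.

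All 71 members with at least 10 labelled counts in at least 2 libraries fell with actinomycin D, where 99.2% of the 7996 genes tested fell and 0.0% rose (edgeR quasi-likelihood test, adjusted p under 0.05). No member had more than 2 labelled counts with actinomycin D, so each passed this filter only through other groups. The fall of all 71 was therefore largely fixed in advance. The number called also depended on the scaling. By the trimmed mean of M-values (TMM), which takes the scale from the human genes themselves, 3 members passed the test. The median log2 fold change was −7.50 over members and −6.64 over all genes on that scale. These fitted values depend on the prior count where a gene is at 0, as 75 members were, so they do not show that the fall held on that scale. Standard errors were wider, at 2.49 for MRPL34 with TMM against 0.69 with the spike-in. The 7 members with too few counts to be tested were MRPL2, MRPL12, MRPL23, MRPL28, MRPL30, MRPL39 and MRPL54. MRPL30 had no labelled count in any library, and MRPL12, whose protein forms the stalk that recruits translation factors, had 12 and 4 with DMSO.

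AZ-5576, which stops pause release, left 120 labelled counts over the 78 genes, 1.69% of DMSO with an exact Poisson 95% interval of 1.4 to 2.02%. No labelled count was seen for 48 members. MRPS34, found only in mitochondrial ribosomes, had 0 and 0 labelled counts with AZ-5576, against 78 and 88 with DMSO, and was at least 57.9-fold lower. The bound was at least 51.0-fold for MRPL21, 46.1-fold for MRPS30 and 44.7-fold for MRPL16, which were also at 0 in both AZ-5576 libraries.

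Labelled counts were seen for the other 30 members. MRPS21 had 12 and 6 labelled counts with AZ-5576, against 125 and 131 with DMSO, a log2 fold change of −3.87 ± 0.38 (SE, adjusted p = 5.50e-23). MRPS2 had 1 and 13, against 115 and 60, so that nearly all of its label came from 1 library. MRPL4 had 5 and 2, against 71 and 59. MRPL44, which has a ribonuclease fold, had 0 and 7, against 34 and 24, and its fitted change turned positive with TMM scaling (0.37). MRPS26, named after its values were seen, had 3 and 6, against 35 and 32 (−2.93 ± 0.62, adjusted p = 3.36e-06), the smallest fitted fall. In these 5 genes every AZ-5576 library lay below every DMSO library. With TMM scaling MRPS21, MRPS2 and MRPL4 did not pass the test (adjusted p = 0.468, 0.744 and 0.329).

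All 71 tested members fell with AZ-5576, beside 94.7% of all genes that fell and 0.2% that rose. No member reached the filter of 10 labelled counts in both AZ-5576 libraries, so each needed other groups to pass it. This outcome was therefore also largely fixed in advance. The median log2 fold change was −7.29 over the members and −5.93 over all genes, fitted values that depend on the prior count where a gene is at 0. With TMM scaling 38 members fell, with medians of −6.02 over members and −3.11 over all genes. In the labelled share of each gene, which compares labelled with unlabelled counts within a library and needs no spike-in, all 71 members fell with actinomycin D (98.3% of genes fell and 0.0125% rose) and with AZ-5576 (93.3% fell and 0.0625% rose). The same filter on labelled counts was used there, so these falls were largely fixed in advance as well.

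JQ1, the BET inhibitor, lowered labelled RNA of 39 of the 71 tested members, where 28.6% of all genes fell and 1.26% rose. The median log2 fold change was −1.34 over members and −0.85 over all genes. By symbol, 21 of 42 large-subunit and 18 of 29 small-subunit genes fell, with medians of −1.20 and −1.45. The call is more frequent at higher counts, so genes were also compared within ranges of labelled counts in DMSO, a comparison chosen after the values were seen. Between 20 and 50 counts, 17 of 29 members (58.6%) and 877 of 2801 other genes (31.3%) fell, and the medians were −1.39 and −0.98. Between 50 and 100 counts, 19 of 27 members (70.4%) and 621 of 1256 other genes (49.4%) fell, and the medians were −1.45 and −0.92.

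The number of members that fell with JQ1 depended on single libraries and on scaling. Without JQ1 replicate 2 it was 22, and without DMSO replicate 1 it was 19. TMM scaling moved the median of all genes by more than the 0.1 used as a limit here, to −0.02, and the members' median to −0.51, still below it. On that scale 415 of 7996 genes fell and 444 rose. The 8 members that fell were MRPL19, MRPL3, MRPL27, MRPS15, MRPL50, MRPL15, MRPS34 and MRPL34, so the other calls given below were lost, and MRPS6 rose (log2 fold change 1.76).

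MRPL3, a large-subunit protein conserved from bacteria and mutated in a form of mitochondrial cardiomyopathy, had 2 and 8 labelled counts with JQ1, against 41 and 68 with DMSO. Both JQ1 libraries lay far below both DMSO libraries. Its log2 fold change was −3.63 ± 0.56 (SE, adjusted p = 6.81e-09). MRPL27, whose bacterial counterpart lies near the peptidyl transferase centre, had 9 and 4 labelled counts with JQ1, against 47 and 47 with DMSO. It fell by 3.05 ± 0.57 on the log2 scale (adjusted p = 2.71e-06).

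MRPS15, a small-subunit protein conserved from bacteria, had 6 and 13 labelled counts with JQ1, against 69 and 64 with DMSO (log2 fold change −3.01 ± 0.49, adjusted p = 8.24e-08). MRPL50, found only in mitochondrial ribosomes, had 6 and 11, against 57 and 53 (−2.89 ± 0.54, adjusted p = 3.40e-06). The groups did not overlap in either gene. MRPL19, outside the rule for named genes and singled out after its values were seen, had 0 and 2 labelled counts with JQ1, against 23 and 27 with DMSO. Its fitted change was larger than that of MRPL3 but rests on 2 counts in 1 JQ1 library.

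Among members with the most label, MRPL34 had 77 and 49 labelled counts with JQ1, against 243 and 165 with DMSO (log2 fold change −1.91 ± 0.27, adjusted p = 2.37e-10). MRPL36 had 40 and 41, against 120 and 106 (−1.70 ± 0.33, adjusted p = 9.71e-06). MRPS16 had 33 and 43, against 112 and 86 (−1.59 ± 0.35, adjusted p = 0.000109). MRPS21 had 61 and 101, against 125 and 131, and changed less (−0.87 ± 0.28, adjusted p = 0.0103). MRPL49, found only in mitochondrial ribosomes, had 63 and 57, against 103 and 84 (−0.86 ± 0.33, adjusted p = 0.0349). MRPS2 had 32 and 38, against 115 and 60 (−1.53 ± 0.37, adjusted p = 0.000485). In these 6 genes the JQ1 libraries lay below the DMSO libraries. The call of MRPS21 was lost without JQ1 replicate 1 (adjusted p = 0.245), DMSO replicate 1 (0.0584) or DMSO replicate 2 (0.115), and that of MRPS2 without DMSO replicate 1 (0.167) and with DESeq2 (0.127). That of MRPL49 was lost without any 1 of the 4 libraries (adjusted p of 0.0944 to 0.254) and with no filter on low counts (0.0762).

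Other members had values near those of DMSO. MRPL18, of which the mammalian gene also yields a cytosolic form in heat stress, had 80 and 53 labelled counts with JQ1, against 64 and 62 with DMSO. The libraries overlapped, and the log2 fold change was −0.15 ± 0.36 (adjusted p = 0.776). MRPL46 had 49 and 53, against 53 and 45 (−0.16 ± 0.40, adjusted p = 0.782). MRPL58, which releases stalled peptides as a peptidyl-tRNA hydrolase within the large subunit, had 50 and 30, against 43 and 35 (−0.19 ± 0.44, adjusted p = 0.768). All 3 values are smaller than their standard errors, and all 3 turned positive with TMM scaling (0.68, 0.67 and 0.64) without passing the test. MRPS6 alone had a positive fitted value, with 30 and 35 labelled counts with JQ1, against 17 and 12 with DMSO (0.94 ± 0.56, adjusted p = 0.186). Its libraries did not overlap.

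The 3 paralogues of one bacterial protein, MRPS18A, MRPS18B and MRPS18C, all fell with JQ1. MRPS18A had 4 and 4 labelled counts, against 29 and 14 with DMSO (log2 fold change −2.60 ± 0.80). MRPS18B had 45 and 31, against 107 and 78 (−1.50 ± 0.35). MRPS18C had 13 and 14, against 48 and 43 (−1.96 ± 0.51). Their adjusted p-values were 0.00697, 0.00022 and 0.00117 in this order, and that of MRPS18A was 0.193 without DMSO replicate 1.

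Of other members with a known role, MRPL11, at the base of the stalk, had 13 and 3 labelled counts with JQ1, against 28 and 16 with DMSO, and fell (−1.67 ± 0.63, adjusted p = 0.0329). MRPS12, at the decoding centre, had 43 and 36, against 79 and 51, and missed the threshold (−0.93 ± 0.39, adjusted p = 0.0547). MRPL44 had 17 and 5, against 34 and 24, and fell (−1.61 ± 0.58, adjusted p = 0.0240). MRPS30 had 22 and 34, against 58 and 74, and fell (−1.45 ± 0.40, adjusted p = 0.00226). MRPS34 had 12 and 35, against 78 and 88, and fell (−2.03 ± 0.40, adjusted p = 1.31e-05). The JQ1 libraries of these 5 genes lay below those of DMSO. The call of MRPL11 was lost without JQ1 replicate 2 (adjusted p = 0.321), DMSO replicate 1 (0.306) or DMSO replicate 2 (0.0553), and that of MRPL44 without the same libraries (0.275, 0.204 and 0.0663). Both were also lost with DESeq2 (0.0552 and 0.0657) and with no filter (0.0718 and 0.0533), and MRPS12 passed with DESeq2 (0.0443). The call of MRPS30 was lost without JQ1 replicate 1 (0.0635) or DMSO replicate 2 (0.0934).

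In the labelled share, 25 of 71 members fell with JQ1, beside 15.3% of all genes that fell and 0.363% that rose. The share of MRPL3 was 0.0766% and 0.294% of its counts with JQ1, against 1.73% and 2.39% with DMSO. That of MRPL18 was 3.39% and 2.4%, against 3.28% and 2.77%. The count was 13 without JQ1 replicate 2, 6 without DMSO replicate 1 and 15 without DMSO replicate 2.

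Members with an ETS core in the promoter had a median JQ1 log2 fold change of −2.03 over 11 genes, of which 8 fell, and those without it −1.33 over 53 genes, of which 29 fell. For the YY1 core the medians were −1.4 over 20 genes with it and −1.36 over 44 without it, for the NRF1 core −1.4 over 6 and −1.36 over 58, and for the E-box −1.17 over 6 and −1.38 over 58. These groups were set side by side after the values were seen and were not tested.

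**Figure D2:**
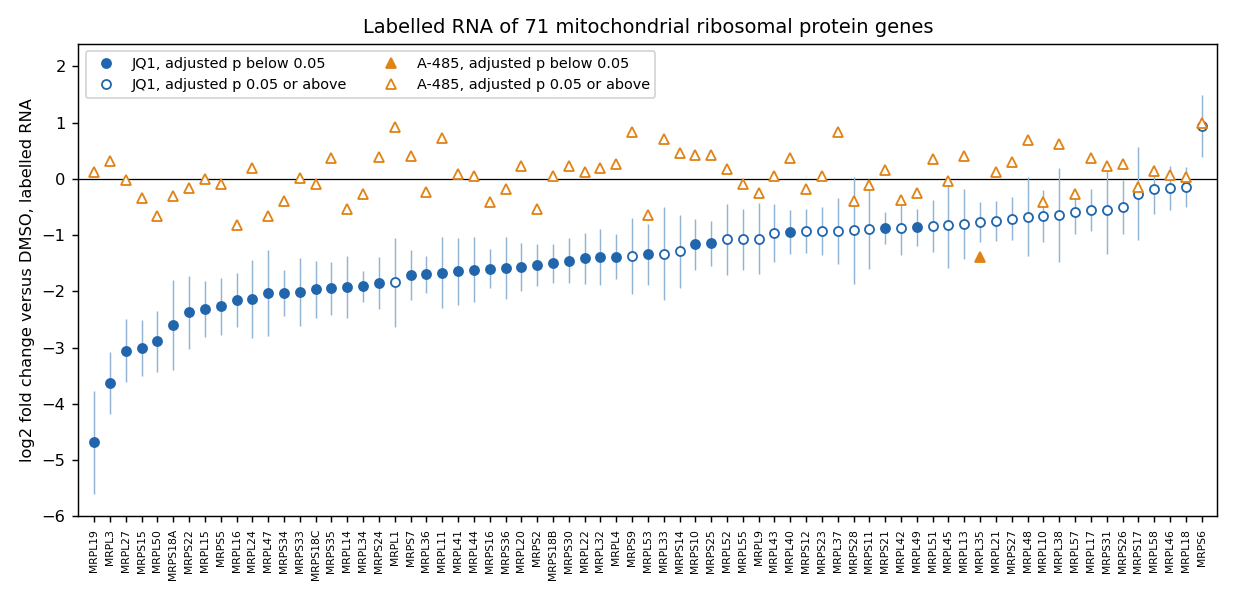
Log2 fold change of labelled RNA against DMSO for each of the 71 tested members, ordered by the JQ1 value, with JQ1 as circles (bars are ± 1 standard error) and A-485 as triangles; filled symbols passed an adjusted p of 0.05. With JQ1, 70 of 71 points lie below 0 and MRPS6 lies above it, while the A-485 points scatter around 0 and MRPL35 alone is filled.

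A-485, the CBP and p300 inhibitor, lowered labelled RNA of 1 of 71 members, MRPL35, where 4.86% of all genes fell and 0.163% rose. The median log2 fold change was 0.05 over members and −0.09 over all genes. MRPL35, a large-subunit protein conserved from bacteria, had 32 and 44 labelled counts with A-485, against 91 and 96 with DMSO. The libraries did not overlap, and the fall was 1.39 ± 0.37 on the log2 scale (adjusted p = 0.00502). Its call was lost without A-485 replicate 1, DMSO replicate 1 or DMSO replicate 2, where 0 members fell and its own log2 fold change was −1.18, −1.46 and −1.32. The same libraries showed a response elsewhere: 8 of 9 tested K562 markers, most of them erythroid genes, fell with A-485, with a median of −3.01.

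MRPL34, with the most label, had 173 and 187 labelled counts with A-485, against 243 and 165 with DMSO (log2 fold change −0.27 ± 0.25, adjusted p = 0.771). The members with the smallest changes with A-485 included MRPL27, which fell with JQ1. MRPL27 had 47 and 52 labelled counts with A-485, against 47 and 47 with DMSO (log2 fold change −0.02 ± 0.45). MRPL15 had 57 and 52, against 45 and 57, and MRPS33 had 30 and 38, against 41 and 22. The libraries of all 4 overlapped. In the labelled share, edgeR called 0 of 71 members with A-485 in either direction, with 1 lower and 1 higher at an unadjusted p under 0.05, beside 2.63% of all genes that fell and 0.025% that rose.

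The difference between the BET and the CBP/p300 inhibitor was tested directly. Labelled RNA of 44 of 71 members was lower with JQ1 than with A-485, where 24.8% of all genes were lower and 3.14% higher. The median log2 difference was −1.39 over members and −0.72 over all genes. MRPL3 had 2 and 8 labelled counts with JQ1, against 78 and 68 with A-485 (log2 difference −3.96 ± 0.55, adjusted p = 7.10e-11). MRPL27 had 9 and 4, against 47 and 52 (−3.04 ± 0.57), and MRPS15 had 6 and 13, against 72 and 40 (−2.67 ± 0.50). MRPL11 had 13 and 3, against 36 and 42 (−2.4 ± 0.61, adjusted p = 0.000999), and its adjusted p was 0.0648 without JQ1 replicate 2.

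Other members did not pass the test between the inhibitors. MRPS6 had 30 and 35 labelled counts with JQ1, against 24 and 38 with A-485 (−0.06 ± 0.52). MRPL35 had 62 and 66, against 32 and 44, with a difference of 0.62 ± 0.37 that missed the threshold (adjusted p = 0.205). The count of 44 became 25 without JQ1 replicate 2 and 24 without A-485 replicate 2. With TMM scaling, 11 members were lower and MRPL35 was higher (1.33), with medians of −0.69 over members and −0.02 over all genes.

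Genes that act with the mitochondrial ribosome were described as lists, beside 28.6% of all genes that fell with JQ1 at a median of −0.85. With JQ1, labelled RNA fell for 8 of 25 tested genes of mitoribosome assembly and rRNA modification (median −1.05), 5 of 13 mitochondrial translation factors (−1.06), 2 of 5 genes of mitochondrial transcription (−1.57), 1 of 5 mitoribosomal proteins outside the symbol rule (−0.83) and 33 of 70 nuclear-encoded respiratory chain genes (−0.96). Cytosolic ribosomal proteins fell in 46 of 77 cases, with a smaller median of −0.72 and much higher counts. Of genes encoded by mitochondrial DNA, 2 of 11 fell (−0.23). Under TMM scaling 2 genes of assembly fell (median −0.22), 1 translation factor (−0.23), 0 of mitochondrial transcription (−0.74) and 2 of the respiratory chain, where 2 rose (−0.12). Of cytosolic ribosomal proteins 4 fell and 8 rose (0.11), of genes of mitochondrial DNA 0 fell and 6 rose (0.6), and of the 5 other mitoribosomal proteins none was called (0.00041).

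DHX30, a helicase needed for mitoribosome assembly, had 32 and 24 labelled counts with JQ1, against 84 and 130 with DMSO (log2 fold change −2.16 ± 0.35, adjusted p = 5.99e-08). MTIF3, an initiation factor of mitochondrial translation, had 12 and 2, against 24 and 47 (−2.55 ± 0.59, adjusted p = 0.000202). CHCHD1, a mitoribosomal protein outside the symbol rule, had 60 and 60, against 120 and 124 (−1.24 ± 0.30, adjusted p = 0.000511). The groups did not overlap in any of the 3. These 3 genes are outside the rule for named genes and were taken from those of their lists that fell.

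Of 9 nuclear regulators of mitochondrial genes, 6 fell with JQ1, with a median of −1.54 (−0.71 with TMM scaling, where 2 fell). MYC had 40 and 6 labelled counts with JQ1, against 109 and 108 with DMSO (−2.46 ± 0.41), and GABPA, the ETS subunit of GABP, had 7 and 0, against 18 and 27 (−2.87 ± 0.82). The JQ1 libraries differed widely for MYC, and the counts of GABPA were low, so the size of both falls is uncertain. NRF1 had 48 and 35, against 53 and 39 (−0.37 ± 0.41, adjusted p = 0.514), and YY1 had 73 and 47, against 80 and 73 (−0.57 ± 0.34, adjusted p = 0.182). With A-485, 2 of these 9 genes fell.

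**Figure D3:**
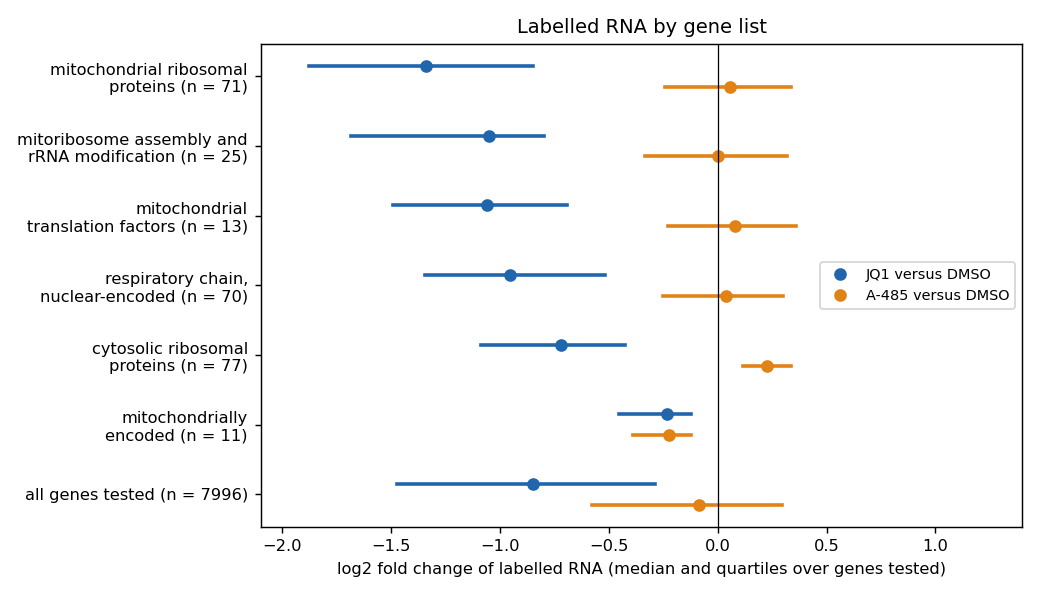
Median (point) and quartiles (line) of the log2 fold change of labelled RNA over the tested genes of each list, for JQ1 and A-485 against DMSO, with the number of genes in brackets. With JQ1 the mitochondrial ribosomal proteins have a median of −1.34, beside −0.72 for cytosolic ribosomal proteins (0.11 with TMM scaling) and −0.85 for all genes tested, and with A-485 a median of 0.05.

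Several members share a promoter region with a neighbour transcribed the other way: 19 members had a protein-coding neighbour with a start within 1000 bases on the other strand. Of 20 such pairs, counted from each member, 11 had both genes tested in labelled RNA. With JQ1 both genes fell in 1 pair, the member alone in 3, the neighbour alone in 1, and neither in 6, a description chosen after the values were seen. The pair of MRPL46 and MRPS11 stands among the 6 from each side. Among the neighbours in the 3, HELQ had 17 and 2 labelled counts with JQ1, against 4 and 6 with DMSO. NDUFB5, beside MRPL47, had 7 and 25, against 16 and 3, so these values are too sparse to read. MRPL32 and PSMA2, a proteasome subunit whose start lies 23 bases away, both fell: MRPL32 had 17 and 17 labelled counts with JQ1, against 49 and 28 with DMSO (log2 fold change −1.39), and PSMA2 had 31 and 32, against 91 and 89 (−1.73). The adjusted p of MRPL32 was 0.0245, and it was 0.0964 without JQ1 replicate 1, 0.0854 without JQ1 replicate 2, 0.328 without DMSO replicate 1 and 0.0516 with no filter on low counts.

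MRPL36 fell. NDUFS6, 34 bases away and a subunit of complex I, had 22 and 28 labelled counts with JQ1, against 39 and 42 with DMSO (−0.91, adjusted p = 0.132). It missed the threshold on lower counts, though its JQ1 libraries also lay below those of DMSO. The genes were not tested against each other. MRPL18 and TCP1, a chaperonin subunit 63 bases away, did not pass the test, and TCP1 had 162 and 145, against 188 and 184 (−0.50, adjusted p = 0.105). MRPL46 and MRPS11, both members, start 34 bases apart, and MRPS11 had 15 and 7, against 10 and 25 (−0.90, adjusted p = 0.329).

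For actinomycin D, AZ-5576 and JQ1, summed total RNA of the members lay closer to DMSO than summed labelled RNA. Summed over the 78 genes, total counts per 1000 spike-in counts were 68.4 ± 3.25 in actinomycin D libraries, 70.8 ± 2.74 in AZ-5576 libraries, 65.4 ± 2.01 in JQ1 libraries, 74.6 ± 1.34 in A-485 libraries and 75.8 ± 4.86 in DMSO libraries (SD, n = 2 each). As a percentage of DMSO they were 90.2% ± 7.20, 93.3% ± 6.99, 86.2% ± 6.13 and 98.4% ± 6.55 in the same order of drugs. By library they were 66.1 and 70.7, 68.8 and 72.7, 63.9 and 66.8, and 73.6 and 75.5 for the 4 drugs, against 72.4 and 79.3 with DMSO. The libraries of actinomycin D and JQ1 lay below both DMSO libraries, and those of AZ-5576 and A-485 overlapped them. In every group the second library had the higher sum. Set against the DMSO library of the same replicate number, both AZ-5576 libraries lay lower, while those of A-485 lay on either side. Scaled to total human counts, the sums were 97.3%, 95.5%, 94.6% and 100.3% of DMSO.

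With actinomycin D, total RNA of 14 of 78 members fell, where 19.7% of all genes fell and 0.336% rose. The median log2 fold change was −0.17 over members and −0.27 over all genes; with TMM scaling the members' median was 0.08, that of all genes −0.02, and 2 members fell while 5 rose. The 14 were 7 without actinomycin D replicate 1, 9 without actinomycin D replicate 2 and 3 without DMSO replicate 2. MRPL50 had 196 and 212 total counts with actinomycin D, against 327 and 373 with DMSO (−0.96 ± 0.18, adjusted p = 9.36e-05). MRPL17, conserved from bacteria, had 421 and 389, against 569 and 607 (−0.71 ± 0.14, adjusted p = 0.000179).

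MRPL44 had 245 and 254 total counts with actinomycin D, against 341 and 375 with DMSO (−0.70 ± 0.17), and MRPL32, which is cleaved on import before it joins the ribosome, had 622 and 460, against 678 and 820 (−0.64 ± 0.16). The libraries of each gene did not overlap between the groups, but each call was lost with TMM scaling, and that of MRPL32 also without actinomycin D replicate 2 (adjusted p = 0.139). Without DMSO replicate 2 the adjusted p was 0.0733 for MRPL44 and 0.151 for MRPL32.

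With AZ-5576, total RNA of 9 of 78 members fell, where 12.9% of all genes fell and 0.782% rose. The median was −0.14 over members and −0.15 over all genes; with TMM scaling both were within 0.1 of 0 and 5 members fell. The 9 were 3 without AZ-5576 replicate 2 and 3 without DMSO replicate 2. MRPL17 had 308 and 321 total counts with AZ-5576, against 569 and 607 with DMSO (−0.97 ± 0.14, adjusted p = 1.99e-06). MRPL50 had 211 and 225, against 327 and 373 (−0.75 ± 0.18, adjusted p = 0.00209). MRPL44 had 231 and 249, against 341 and 375 (−0.64 ± 0.17, adjusted p = 0.00716). MRPL32 had 543 and 514, against 678 and 820 (−0.57 ± 0.16, adjusted p = 0.0137).

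The AZ-5576 calls of MRPL44 and MRPL32 were lost with TMM scaling (adjusted p = 0.0537 and 0.198), without AZ-5576 replicate 2 (0.066 and 0.158) and without DMSO replicate 2 (0.13 and 0.291), and that of MRPL50 without DMSO replicate 2 (0.0754). The values with actinomycin D and with AZ-5576 share the DMSO libraries. Set against each other, actinomycin D and AZ-5576 gave 0 of 78 members called by edgeR and by DESeq2, with 2 lower and 0 higher at an unadjusted p under 0.05, beside 2.0% of all genes lower and 0.371% higher with actinomycin D. MRPL17 had 421 and 389 total counts with actinomycin D, against 308 and 321 with AZ-5576, a difference of 0.26 ± 0.14 on the log2 scale (adjusted p = 0.547).

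Members that fell in total RNA with actinomycin D had a larger labelled share in DMSO. The share had a median of 5.16% over the 14 members that fell (range 2.24 to 15.7%) and 2.09% over the 62 others with at least 100 total counts in each DMSO library (0.482 to 6.59%). Both measures use the DMSO total counts, so they are not independent, and no test was made.

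**Figure D4:**
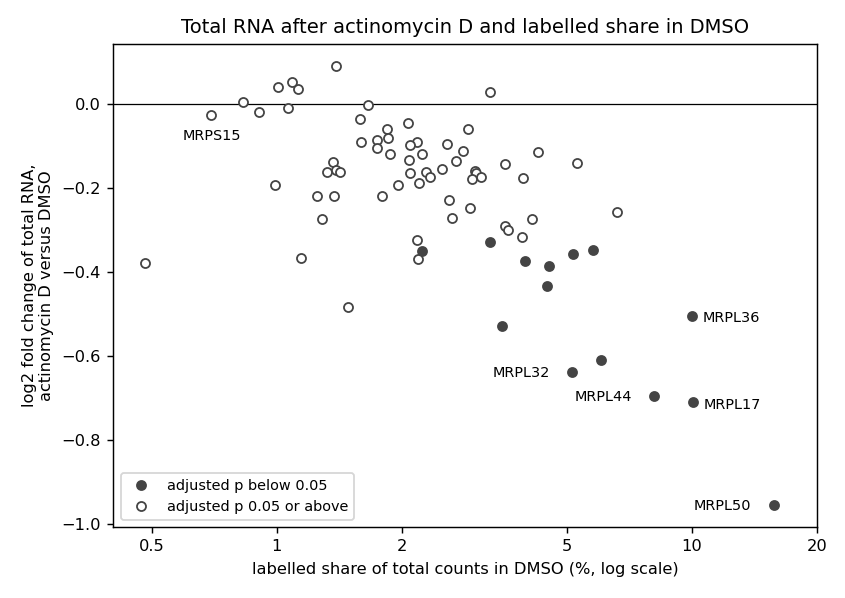
Labelled share of total counts in DMSO (x, percent on a log scale) and log2 fold change of total RNA with actinomycin D against DMSO (y) for the 76 members with at least 100 total counts in each DMSO library; filled points passed an adjusted p of 0.05. MRPL50, with 15.7% labelled, lies lowest at −0.96, while MRPS15, with 0.695% labelled, lies near 0.

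With JQ1, total RNA of 11 of 78 members fell, where 7.35% of all genes fell and 0.837% rose. The median was −0.24 over members and −0.19 over all genes; with TMM scaling both were within 0.1 of 0 and 2 members, MRPL50 and MRPS2, fell. The 11 were 3 without DMSO replicate 2. All 11 were among the 39 that fell in labelled RNA, which is a part of total RNA. MRPL50 had 212 and 203 total counts with JQ1, against 327 and 373 with DMSO (−0.98 ± 0.18, adjusted p = 0.000224). MRPL36 had 967 and 843, against 1148 and 1114 (−0.54 ± 0.12, adjusted p = 0.0021).

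MRPS2, conserved from bacteria, had 1636 and 1466 total counts with JQ1, against 1940 and 1920 with DMSO (−0.54 ± 0.11, adjusted p = 0.000688). MRPS18A had 993 and 736, against 1024 and 946 (−0.41 ± 0.12, adjusted p = 0.0304), and its call was lost without JQ1 replicate 2 (adjusted p = 0.322), DMSO replicate 1 (0.11) or DMSO replicate 2 (0.135). MRPL3, which fell furthest in labelled RNA among the named genes, was at 2.09% labelled in DMSO and was not called in total RNA with JQ1.

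With A-485, edgeR and DESeq2 both called 0 of 78 members in total RNA, with 1 lower and 0 higher at an unadjusted p under 0.05, beside 1.2% of all genes that fell and 0.0343% that rose. The median was −0.02 over members and −0.04 over all genes. Over all comparisons with JQ1, A-485, AZ-5576 or actinomycin D, no member was called higher by edgeR under spike-in scaling, or by DESeq2 in labelled and total RNA, and an unadjusted p under 0.05 for a rise was seen for 1 member, in the labelled share with A-485.

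In DMSO cells, the labelled share of a member's counts describes how much of its RNA was made in the last 1 h, as far as conversions were seen. Over the 76 members with at least 100 total counts in each DMSO library its median was 2.24% (quartiles 1.56 and 3.55%), below the 3.42% of all genes with such counts and above the 0.827% of cytosolic ribosomal proteins and the 1.42% of the nuclear-encoded respiratory chain. The highest shares were those of MRPL50 at 15.7% (95% Wilson interval 13.2 to 18.6%), MRPL17 at 10.0% (8.44 to 11.9%) and MRPL36 at 9.99% (8.82 to 11.3%). The lowest were those of MRPL2 at 0.482% (0.164 to 1.41%), MRPS15 at 0.695% (0.587 to 0.823%) and MRPL12 at 0.831% (0.512 to 1.35%).

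The intervals of the highest and the lowest members lay far apart, and the libraries of DMSO gave 17.4% and 14.2% for MRPL50 and 0.729% and 0.662% for MRPS15. A read can show a conversion only where its RNA holds U. Over the last 250 bases of 1 transcript per gene, U made up 14 to 40.4% of bases (median 29.6%), at 36.4% in MRPL50, 26.0% in MRPL36, 19.2% in MRPS15 and 14% in MRPL12. Across the 76 genes, Spearman's rho between U content and share was 0.35 and Pearson's r 0.32, a description across genes that are not independent replicates.

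Reads of some members may be shared with other loci. Annotated pseudogenes carried the names of 34 members, 75 in all, with 8 for MRPS21 and 4 for MRPL35. Another gene on the same strand covered part of the last 500 bases of 11 members, among them MRPL12, MRPL46, MRPS6, MRPS16 and MRPS24. Counting by strand would not separate these. A gene on the other strand covered part of the last 500 bases of 26 members, among them MRPL34, MRPL44, MRPS2, MRPS12 and MRPS18A. Whether the counting used strand or dropped reads with several placements is not given in the sources used here, so values of these genes are uncertain to that extent.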

How the data were processed

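Libraries from 10 K562 samples, 2 in each of 5 groups, were analysed. The authors deposited whole-number counts per gene for labelled (T-to-C) reads, for all reads and for the Drosophila spike-in. The submitters' processing notes name Trim Galore 0.6.5, bedtools, bcl2fastq 2.17.1.14 and the builds dm6 and hg38. Which aligner and which rule for a conversion were used, and whether strand was, is not given in the sources used here. Gene names and types came from GENCODE 29.

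Counts were tested with edgeR 4.0.16 (robust quasi-likelihood, 2-sided, R 4.3.3) in 1 fit of all 10 libraries, with the spike-in sum as library size and genes kept where 2 or more libraries reached 10 counts. The fits held 7996 genes for labelled RNA, 14572 for total RNA and 7995 for the labelled share, and p-values were adjusted over all of them by Benjamini-Hochberg at 0.05. The labelled share was tested by setting labelled against unlabelled counts within libraries. The standard error (SE) is the size of the log2 fold change divided by the square root of F. Spike-in scaling carries any error in the amount added into every gene. Labelled counts need a conversion in a short 3′ read, so they depend on U content and undercount new RNA, and low counts give wide errors.

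Genes were named by rule: the 12 with the most labelled counts in DMSO, the 4 called members with the largest non-overlapping change and a mean of at least 20 counts in each comparison, the 3 closest to 0, a panel with known roles, and the 3 highest and lowest labelled shares. Genes of other lists were not covered by these rules. Members and lists were chosen with earlier results of these data known. Alternatives were TMM scaling, DESeq2 1.42.0, no filter, a replicate block, each library left out, scaling to human counts and sums without the top 3 members. The code was tested on simulated data.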

Additional observations from a re-analysis of the deposited data

How the results depend on the processing

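With TMM scaling, the members that fell in labelled RNA numbered 3 with actinomycin D, 38 with AZ-5576 and 8 with JQ1 (1 rose), 11 were lower with JQ1 than with A-485 (1 was higher), and in total RNA 2 fell with actinomycin D (5 rose), 5 with AZ-5576 and 2 with JQ1. The cause was not tested beyond the scaling itself, which is taken from human genes. Leaving out 1 library at a time gave 19 to 31 members that fell in labelled RNA with JQ1, 0 to 1 with A-485 and 24 to 35 for JQ1 against A-485; 6 to 21 in the labelled share with JQ1; and 3 to 16, 3 to 12 and 3 to 13 in total RNA with actinomycin D, AZ-5576 and JQ1. These fits rest on fewer samples and assume that a lone library varies like the other groups. Gene by gene, same-numbered libraries deviated together little. Correlations of their deviations over 10 pairs of groups were −0.0211 to 0.027 for labelled and −0.0167 to 0.138 for total RNA. Such correlations do not register a shift shared by all genes. The spike-in percentage was lower in replicate 2 than in replicate 1 of every group, at 10.9% and 10.0% in DMSO replicates 1 and 2, so a shared replicate shift is not excluded. A replicate block moved the total RNA counts to 23 with actinomycin D and 29 with JQ1, and the labelled counts to 37 with JQ1 and 38 for JQ1 against A-485. Scaled to human counts, labelled sums were 17.3% of DMSO for actinomycin D, 13.5% for AZ-5576, 64.2% for JQ1 and 110% for A-485, and the total sum was 94.6% with JQ1. Without the 3 members of highest counts, labelled sums were 0.0604% with actinomycin D and 1.56% with AZ-5576. For single named genes, 457 values kept direction and side of the threshold, 67 lost the call, 3 gained one and 25 changed sign, none of these 25 past the threshold. With TMM scaling, JQ1 log2 fold changes turned to 0.68 for MRPL18, 0.67 for MRPL46, 0.64 for MRPL58, 0.0798 for MRPL21 and 0.065 for MRPL35, JQ1 against A-485 to 0.51 for MRPL18, 0.48 for MRPL46 and 0.65 for MRPS6, A-485 to 0.11 for MRPL27, AZ-5576 to 0.37 for MRPL44, and total RNA of MRPL3 with JQ1 to 0.014. The replicate block turned MRPL15 with A-485 to −0.029. Leaving out 1 library gave, with JQ1, −0.44 to 0.091 for MRPL18 and −0.56 to 0.11 for MRPL58; for JQ1 against A-485, −0.48 to 0.051 for MRPL18, −0.56 to 0.18 for MRPL46 and −0.35 to 0.304 for MRPS6; and with A-485, −0.19 to 0.22 for MRPL15, −0.086 to 0.049 for MRPL27, −0.49 to 0.0039 for MRPL34 and −0.33 to 0.504 for MRPS33. The cause was not tested. The labelled libraries of actinomycin D and AZ-5576 hold few counts per member, so an order among members is not read from them.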
